A study of Homo sapiens with 12 samples.

Results

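The genes described here are 10 double-stranded RNA sensors, adaptors and regulators, DDX58, IFIH1, DHX58, EIF2AK2, TLR3, MAVS, ADAR, TRIM25, ZC3HAV1 and TBK1, taken by name from the 58302 genes of the deposited tables. Their RNA was measured in 12 libraries from 769-P and ACHN, established human cell lines that the labels call ccRCC cells. In each line, 3 libraries came from cells transfected for 48 h with si-NUF2, a mixture of siRNAs against NUF2 (a kinetochore protein needed for chromosome segregation), and 3 from cells transfected with the negative control si-NC. An siRNA is itself a short double-stranded RNA, and the cells of all 4 groups received siRNA. The baseline here is therefore si-NC, and untransfected cells were not analysed here. Between si-NC and si-NUF2 the siRNA used and the loss of NUF2 change together, so their effects cannot be told apart in this design. The questions were which sensors 769-P holds and ACHN lacks, and which of them moved with si-NUF2 in each line.

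Double-stranded RNA in the cytoplasm is read mainly as a sign of viral infection. RIG-I (DDX58) and MDA5 (IFIH1) bind it and signal through the mitochondrial adaptor MAVS, LGP2 (DHX58) tunes both, and TBK1 then phosphorylates the transcription factor IRF3, which turns on interferon genes. TLR3 detects double-stranded RNA in endosomes, the kinase PKR (EIF2AK2) halts translation when bound to it, ADAR edits it so that it is less readily sensed, TRIM25 is a ubiquitin ligase that acts with RIG-I and ZAP, and ZAP (ZC3HAV1) binds CpG-rich RNA and directs its decay. Several of these genes are themselves induced by interferon, through the interferon-stimulated response element (ISRE), whose core is a pair of GAAA copies.

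Stretches of the promoters are shown for the members in which that core was found. RefSeq promoter windows (GRCh38.p14, 250 bases before to 50 after a start) were found for 9 of the 10 members, 11 windows in all. No window was found for DHX58, so its promoter was not searched. GAAA, any 2 bases and GAAA again, on either strand, was present in the windows of 3 members (IFIH1, EIF2AK2 and TLR3) and in 3.57% of all 35116 windows. With copies 1 or 2 bases apart, a spacing added after the data had been seen, DDX58 and TRIM25 also held it, which makes 5 members against 6.40% of all windows. Members are counted as genes and the shares are of windows, so they are not in the same unit. The stretches below are written 5′ to 3′ on the strand of the gene, with the GAAA copies, or TTTC where they lie on the other strand, in capitals.
DDX58, chr9:32526360-32526419, minus strand: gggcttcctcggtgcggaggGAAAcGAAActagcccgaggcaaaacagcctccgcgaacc
IFIH1, chr2:162318804-162318863, minus strand: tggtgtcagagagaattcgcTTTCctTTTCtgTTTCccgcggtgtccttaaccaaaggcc
IFIH1, chr2:162318666-162318725, minus strand: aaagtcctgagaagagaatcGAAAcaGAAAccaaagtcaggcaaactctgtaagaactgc
EIF2AK2, chr2:37156961-37157020, minus strand: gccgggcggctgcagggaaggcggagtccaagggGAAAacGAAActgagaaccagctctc
TLR3, chr4:186069116-186069175, plus strand: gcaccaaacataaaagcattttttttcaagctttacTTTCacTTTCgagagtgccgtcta
TRIM25, chr17:56914030-56914089, minus strand: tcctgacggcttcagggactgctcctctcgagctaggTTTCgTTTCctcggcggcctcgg
IFIH1 held the core 3 times, the first pair of matches sharing a copy. The windows of MAVS, ADAR, ZC3HAV1 and TBK1 held it at neither spacing. The STAT site (TTC, any 3 bases, GAA) was found for TLR3 and ZC3HAV1 and in 7.66% of all windows. These are matches of letters in a window and no factor binding was measured.

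The libraries held between 29244019 and 38864846 recovered reads, and levels are FPKM (fragments scaled to transcript length and library size, so that genes can be compared per length). NUF2 was at 17.8 to 19.4 FPKM in 769-P under si-NC against 3.01 to 4.17 under si-NUF2, and at 11.6 to 15.0 against 2.16 to 5.14 in ACHN, so the groups did not overlap in either line. The epithelial and renal markers PAX8 (44.7 to 199), PAX2 (5.52 to 23.8), KRT8 and KRT18 were present in all 12 libraries, as was VIM. CA9, a marker of clear cell tumours, was at most 0.121 FPKM in any library and CDH6 was near 0 in ACHN. The leukocyte markers PTPRC and CD3E and the endothelial markers PECAM1 and CDH5 were at most 0.0461 FPKM, and CD14 was at most 0.397. Each library averages over the cells of a culture, so fewer responding cells and less RNA per cell cannot be told apart.

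All 10 members were present in both lines, if presence is taken as 0.5 FPKM or more in every si-NC library. None was held by 769-P and lacking in ACHN. By the same measure 4.04% of the 15376 genes tested were at this level in 769-P and below it in every si-NC library of ACHN, and 8.23% were the other way round. Under si-NC the mean FPKM in 769-P ran in the order ADAR, TRIM25, MAVS, EIF2AK2, ZC3HAV1, TBK1, DDX58, DHX58, IFIH1 and TLR3, from 37.0 to 0.821. Of the neighbours in this order, EIF2AK2 and ZC3HAV1 overlapped, as did DHX58 and IFIH1, and the others did not. In ACHN the order was TRIM25, ADAR, TBK1, MAVS, EIF2AK2, ZC3HAV1, DDX58, DHX58, TLR3 and IFIH1, from 58.4 to 2.86. There the ranges of neighbours overlapped except between ADAR and TBK1 and between MAVS and EIF2AK2. The endosomal TLR3 was last in 769-P, and TBK1 was the sixth in 769-P and the third in ACHN.

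**Figure D1:**
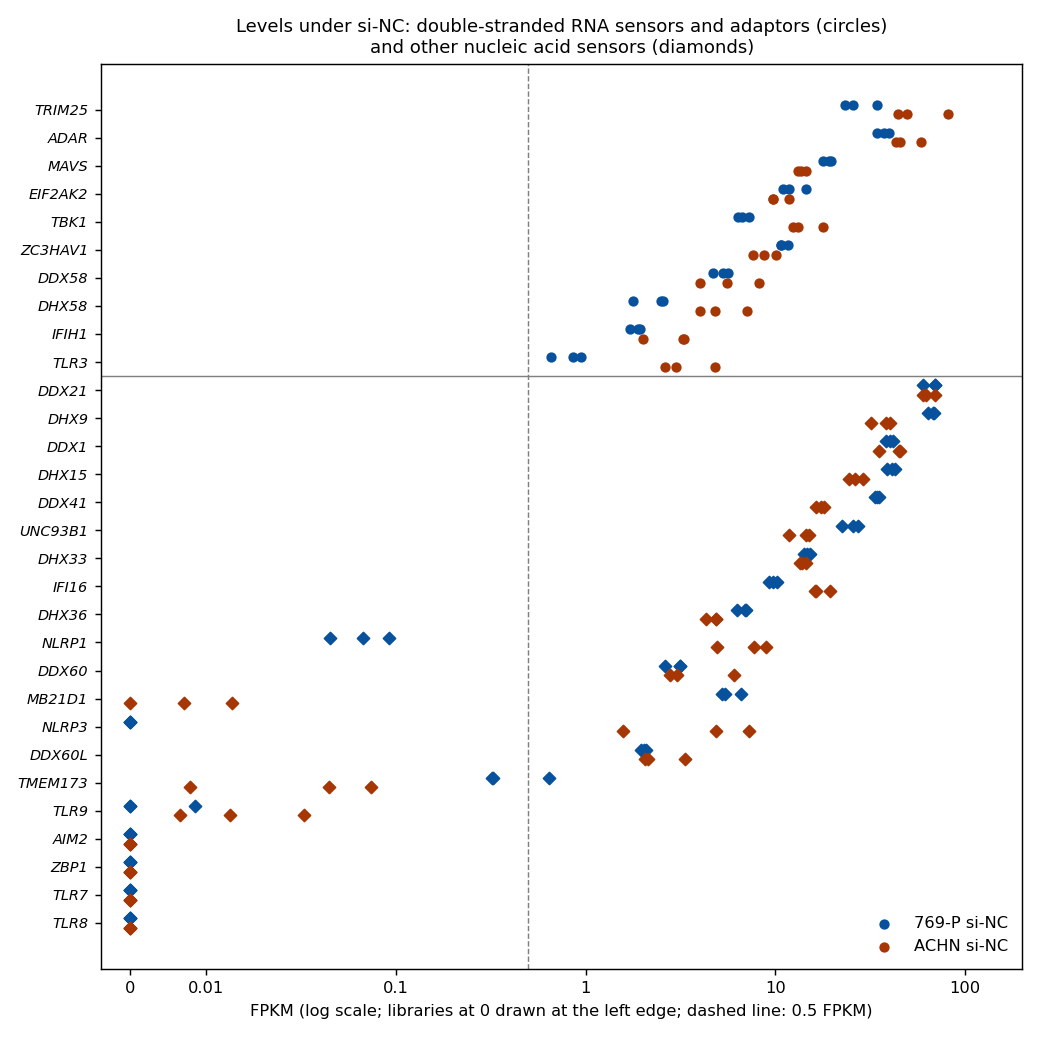
FPKM on a log axis under si-NC for the 10 double-stranded RNA sensors and adaptors (circles, upper part) and 20 other nucleic acid sensors (diamonds, lower part), with 3 libraries per line and 0.5 FPKM as a dashed line. All members lie right of the line in both lines, whereas MB21D1 does so in 769-P alone and NLRP1 and NLRP3 in ACHN alone.

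Between the lines under si-NC, 4 members were higher in ACHN (TLR3, DHX58, TBK1 and TRIM25) and 2 were lower (MAVS and ZC3HAV1), at an adjusted p under 0.05 in limma with adjustment over all genes tested. These 6 of 10 stand beside 61.5% of the 15376 genes tested, so the members differed between the lines about as often as other genes. The values of each member in all libraries follow, by role, with these differences and the responses to si-NUF2. Fold changes are on the scale of log2(FPKM + 0.1). In 769-P, limma without a replicate block called 3 of the 10 members with si-NUF2, beside 9.98% of 14155 genes, and 2 of these rose (5.26% of genes rose) and 1 fell (4.71%). With same-numbered libraries paired by a replicate block 7 were called beside 27.5%, of which 6 rose (13.6%) and 1 fell (13.9%). In ACHN the fit without the block called 0 of 10 members beside 0.0% of 15116 genes, with 1 member and 1238 genes at an unadjusted p under 0.05. This fit did not call NUF2 itself either (log2 fold change -1.87, limma adjusted p = 0.224, and 0.0122 with the block). The 0 calls therefore do not show that the members did not respond. The fit with the block called 2 of 10 beside 12.2%, and both fell (5.05% of genes fell and 7.14% rose). The comparisons within a line and those between the lines share libraries and are not independent of each other.

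**Figure D2:**
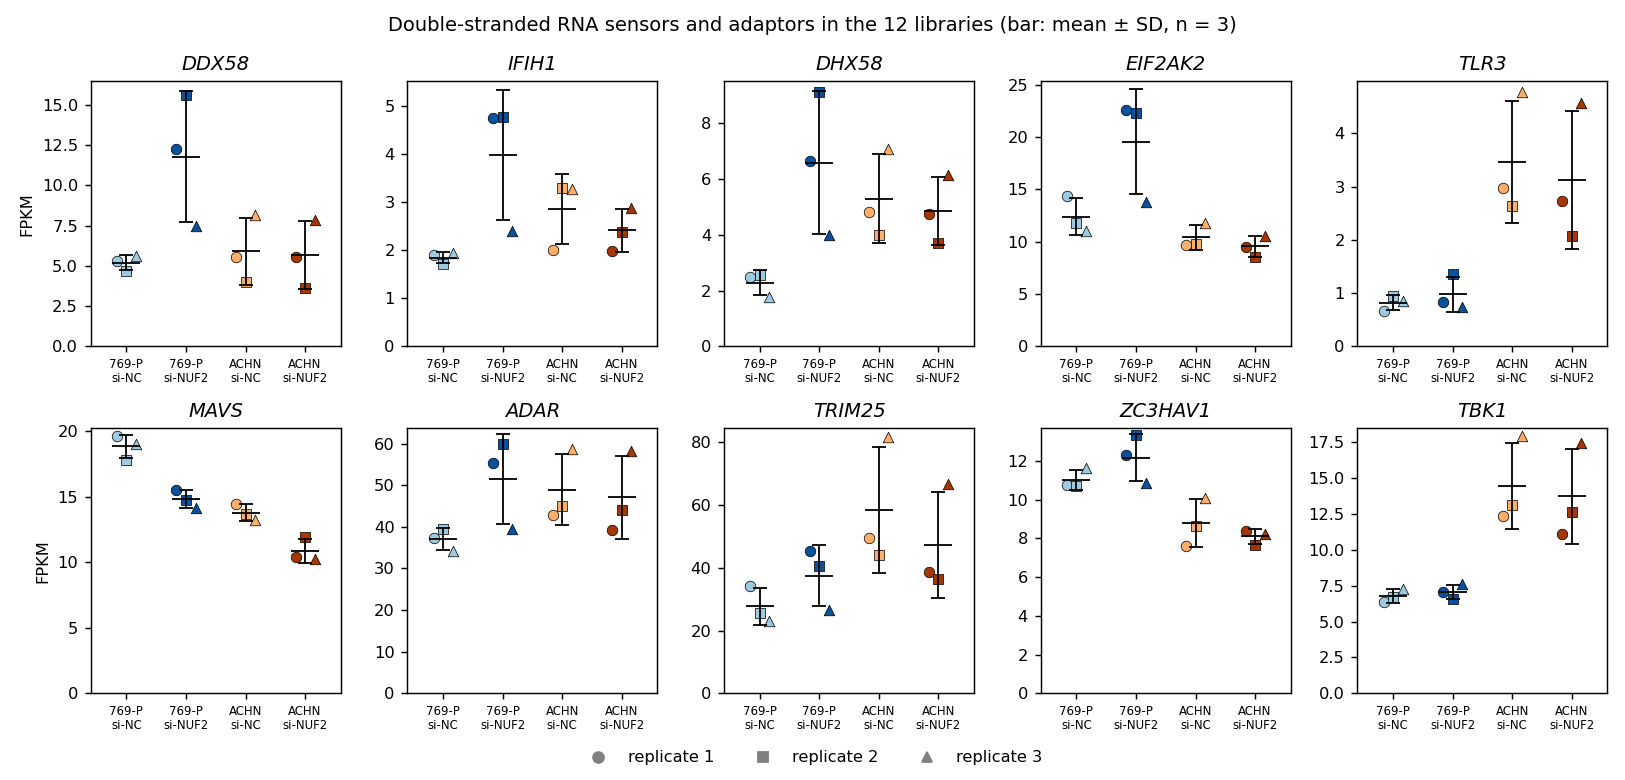
FPKM of each member (vertical axes, from 0) in the 12 libraries, by group, with the replicate number as the symbol and bars for the mean ± SD (n = 3). In 769-P, replicate 3 of si-NUF2 is the lowest of its group for all members but TBK1, and in ACHN replicate 3 is the highest under both siRNAs for DDX58, DHX58, EIF2AK2, TLR3, ADAR, TRIM25 and TBK1.

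DDX58 encodes RIG-I, the sensor of RNA with a 5′ triphosphate end, and lies on the minus strand of chromosome 9 (32455705 to 32526324, GRCh38). In 769-P it was at 5.28, 4.70 and 5.62 FPKM in replicates 1 to 3 of si-NC and at 12.3, 15.6 and 7.47 under si-NUF2. All si-NUF2 libraries were above all si-NC libraries, with replicate 3 nearest to them. It rose 2.17-fold (log2 fold change 1.12 ± 0.25 SE, n = 3 per group, limma adjusted p = 0.0364). Without si-NUF2 replicate 3 the log2 fold change was 1.41, and leaving out any other library moved the adjusted p to between 0.0631 and 0.108. In ACHN the level was 5.53, 4.02 and 8.15 under si-NC and 5.58, 3.65 and 7.85 under si-NUF2, so replicates of a number were close and the groups overlapped. The log2 fold change was -0.04 (95% interval -0.90 to 0.82, and -0.20 to 0.11 with the block). Under si-NC the lines overlapped as well, with a log2 difference of 0.09 (95% interval -0.50 to 0.68, ACHN over 769-P).

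IFIH1 encodes MDA5, the sensor of long double-stranded RNA (chromosome 2, 162267079 to 162318703, minus strand), and is the member with the response element 3 times in the stretches above. Its FPKM in 769-P were 1.89, 1.71 and 1.93 under si-NC and 4.75, 4.77 and 2.40 under si-NUF2. The groups did not overlap, and replicates 1 and 2 carried most of the difference. The 2.02-fold higher mean (log2 1.02 ± 0.26 SE) had a limma adjusted p of 0.0514 and, with the block, of 0.0323 (0.0149 to 0.139 over 15 alternatives). In ACHN it was at 2.01, 3.29 and 3.26 under si-NC and at 1.97, 2.39 and 2.87 under si-NUF2, with a log2 fold change of -0.20 (95% interval -0.78 to 0.38). The difference between the lines under si-NC, 0.54 on the log2 scale towards ACHN, had an adjusted p of 0.0626 in limma. Leaving out 1 library gave 0.0047 (without ACHN si-NC replicate 1) to 0.172, and the block gave 0.0825.

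DHX58 encodes LGP2, the relative of RIG-I and MDA5 that lacks their signalling domains (chromosome 17, 42101404 to 42112733, minus strand). It had the largest log2 fold change with si-NUF2 of the members in 769-P. Its FPKM there were 2.50, 2.57 and 1.78 under si-NC and 6.65, 9.11 and 3.98 under si-NUF2, a rise of 2.70-fold (log2 1.44 ± 0.29 SE, limma adjusted p = 0.0296) with no overlap. All 3 same-numbered pairs rose, by 1.38, 1.79 and 1.13 on the log2 scale. The adjusted p passed 0.05 without si-NUF2 replicate 1 (0.0725) or 2 (0.0611) and without si-NC replicate 2 (0.0722) or 3 (0.0973). In ACHN the gene was at 4.82, 3.98 and 7.06 under si-NC and at 4.75, 3.69 and 6.14 under si-NUF2, with a log2 fold change of -0.09 (95% interval -0.75 to 0.56). Every ACHN si-NC library was above every 769-P si-NC library, and the 2.17-fold difference between the lines was called (log2 1.12 ± 0.24 SE, limma adjusted p = 0.0066). Under si-NUF2 the sign of this difference was the opposite, -0.42 on the log2 scale, and it was not called (limma adjusted p = 0.299).

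TLR3, the endosomal receptor (chromosome 4, 186069152 to 186088069, plus strand), was the member with the lowest level in 769-P and the largest difference between the lines. In 769-P it was at 0.661, 0.946 and 0.854 FPKM under si-NC, which are 131, 204 and 186 recovered reads, and at 0.839, 1.35 and 0.735 under si-NUF2. In ACHN it was at 2.98, 2.63 and 4.78 under si-NC and at 2.72, 2.07 and 4.57 under si-NUF2. No library of ACHN was as low as any of 769-P. Under si-NC it was 3.69-fold higher in ACHN (log2 1.88 ± 0.25 SE, limma adjusted p = 0.000761). With si-NUF2 the estimate was 0.20 on the log2 scale in 769-P (95% interval -0.39 to 0.80) and -0.16 in ACHN (-1.0 to 0.68), and neither was called with or without the block.

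EIF2AK2 encodes PKR (chromosome 2, 37099210 to 37157065, minus strand). In 769-P it was at 14.4, 11.8 and 11.0 FPKM under si-NC and at 22.6, 22.3 and 13.8 under si-NUF2. Replicate 3 of si-NUF2 lay within the range of si-NC, so the groups overlapped, and all 3 same-numbered pairs were higher under si-NUF2. The log2 fold change of 0.64 ± 0.21 (SE) had a limma adjusted p of 0.101, and of 0.0182 with the block (0.0182 to 0.246 over 15 alternatives). In ACHN the values were 9.73, 9.75 and 11.8 under si-NC and 9.54, 8.56 and 10.5 under si-NUF2, a log2 fold change of -0.11 (95% interval -0.42 to 0.21). The lines did not differ past the threshold under si-NC (log2 -0.28, limma adjusted p = 0.118), and under si-NUF2 PKR was lower in ACHN, by 1.03 on the log2 scale (adjusted p = 0.00476). Its exons share 35 bases with GPATCH11 and 401 with AC007899.1 on the opposite strand, and whether the counting used strand is not given in the sources used here. GPATCH11 was at 2.30 to 4.99 FPKM and AC007899.1 at most at 0.135.

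ADAR, the adenosine deaminase that edits double-stranded RNA (chromosome 1, 154582057 to 154628013, minus strand), was among the most abundant members. In 769-P it was at 37.2, 39.6 and 34.2 FPKM under si-NC and at 55.3, 59.9 and 39.4 under si-NUF2. The highest si-NC library lay just above the lowest si-NUF2 library in FPKM and just below it once the libraries were scaled. The log2 fold change of 0.47 ± 0.16 (SE) had a limma adjusted p of 0.107, and of 0.020 with the block (0.020 to 0.254 over 15 alternatives). In ACHN the values were 42.9, 45.1 and 58.7 under si-NC and 39.1, 44.0 and 58.1 under si-NUF2, and the same-numbered pairs differed by at most 0.10 in size on the log2 scale. Under si-NC all ACHN libraries were above those of 769-P, and the log2 difference of 0.35 had an adjusted p of 0.0601 in limma and of 0.0399 without ACHN si-NC replicate 1.

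ZC3HAV1 encodes ZAP (chromosome 7, 139043520 to 139109719, minus strand). Its FPKM were 10.7, 10.7 and 11.6 in 769-P under si-NC and 12.3, 13.3 and 10.9 under si-NUF2, and the groups overlapped. In ACHN they were 7.60, 8.65 and 10.1 under si-NC and 8.40, 7.65 and 8.24 under si-NUF2, again overlapping. ZAP was not called with si-NUF2 in either line, with log2 fold changes of 0.15 (95% interval -0.07 to 0.36) and -0.09 (-0.40 to 0.22). It was lower in ACHN than in 769-P by 0.37 on the log2 scale under si-NC (limma adjusted p = 0.0371) and by 0.61 under si-NUF2 (0.00247), with no overlap of the lines. The call under si-NC was lost without any 1 of the libraries other than ACHN si-NC replicate 3 (adjusted p 0.0705 to 0.114) and with either other scaling of the FPKM, under which ADAR was called in its place.

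TRIM25, the ubiquitin ligase (chromosome 17, 56836387 to 56914080, minus strand), was the most abundant member in ACHN. In 769-P it was at 34.2, 25.6 and 23.2 FPKM under si-NC and at 45.3, 40.7 and 26.5 under si-NUF2. The groups overlapped, since replicate 3 of si-NUF2 lay within the si-NC range, and all 3 pairs were higher under si-NUF2 (0.41, 0.67 and 0.21 on the log2 scale). The log2 fold change of 0.43 ± 0.23 (SE) had a limma adjusted p of 0.271, and of 0.0288 with the block (0.0288 to 0.538 over 15 alternatives). In ACHN it was at 49.6, 44.1 and 81.4 under si-NC and at 38.8, 36.3 and 66.6 under si-NUF2. Here all 3 pairs were lower under si-NUF2, by -0.33, -0.27 and -0.27, and the log2 fold change of -0.29 had a limma adjusted p of 0.946 without the block and of 0.0207 with it (0.0207 to 0.999 over 15 alternatives). Under si-NC it was 2.01-fold higher in ACHN (log2 1.00 ± 0.26 SE, adjusted p = 0.0126), with no overlap. Its exons share 132 bases with C17orf67 on the same strand (1.43 to 2.68 FPKM) and 80 with DGKE on the opposite strand (0.0542 to 2.64 FPKM).

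MAVS, the mitochondrial adaptor of RIG-I and MDA5 (chromosome 20, 3846799 to 3876123, plus strand), was the only member that fell with si-NUF2 in 769-P. It was at 19.6, 17.8 and 19.1 FPKM under si-NC and at 15.5, 14.7 and 14.2 under si-NUF2, with no overlap. It fell by 0.34 on the log2 scale (± 0.07 SE, limma adjusted p = 0.0369), and leaving out any 1 of the 6 libraries took the adjusted p to between 0.0594 and 0.118. In ACHN it was at 14.5, 13.7 and 13.2 under si-NC and at 10.4, 11.9 and 10.3 under si-NUF2, also with no overlap. The log2 fold change there was -0.33 ± 0.10 (SE), with a limma adjusted p of 0.446, and of 0.0383 with the block (0.0383 to 0.934 over 15 alternatives). The lines also differed: MAVS was lower in ACHN by 0.48 on the log2 scale under si-NC (adjusted p = 0.00294).

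TBK1, the kinase downstream of MAVS and of the TLR3 adaptor (chromosome 12, 64451880 to 64502108, plus strand), differed between the lines and was not called with si-NUF2. It was at 6.35, 6.71 and 7.26 FPKM in 769-P under si-NC and at 7.07, 6.58 and 7.58 under si-NUF2. ACHN had 12.3, 13.1 and 17.9 under si-NC and 11.1, 12.6 and 17.5 under si-NUF2, so no library of ACHN was as low as any of 769-P. It was 2.04-fold higher in ACHN under si-NC (log2 1.03 ± 0.16 SE, limma adjusted p = 0.0013). With si-NUF2 the 769-P libraries gave a log2 fold change of 0.07 (95% interval -0.14 to 0.28), and those of ACHN gave -0.06 (-0.59 to 0.47). It shares 702 bases with AC135279.3 on the opposite strand, which was at most at 0.413 FPKM.

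Over the members, 5 of 10 had libraries that did not overlap between si-NUF2 and si-NC in 769-P after scaling (DDX58, IFIH1, DHX58, MAVS and ADAR), beside 33.0% of the genes tested, and 1 of 10 in ACHN (MAVS), beside 14.6%. The median log2 fold change of the members was 0.45 in 769-P, with 9 of 10 above 0, against -0.01 over all genes tested, of which 6897 of 14155 were above 0. In ACHN it was -0.10, with 0 of 10 above 0, against 0.01 over all genes, of which 7745 of 15116 were above 0. The members share these libraries and were chosen with earlier results of these data known, so their signs are not separate observations. With 3 libraries against 3 an exact permutation test of a single gene cannot go below 0.1. The labels do not say that the replicates were separate cultures, so the p-values measure the spread between these libraries, which may be technical.

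**Figure D3:**
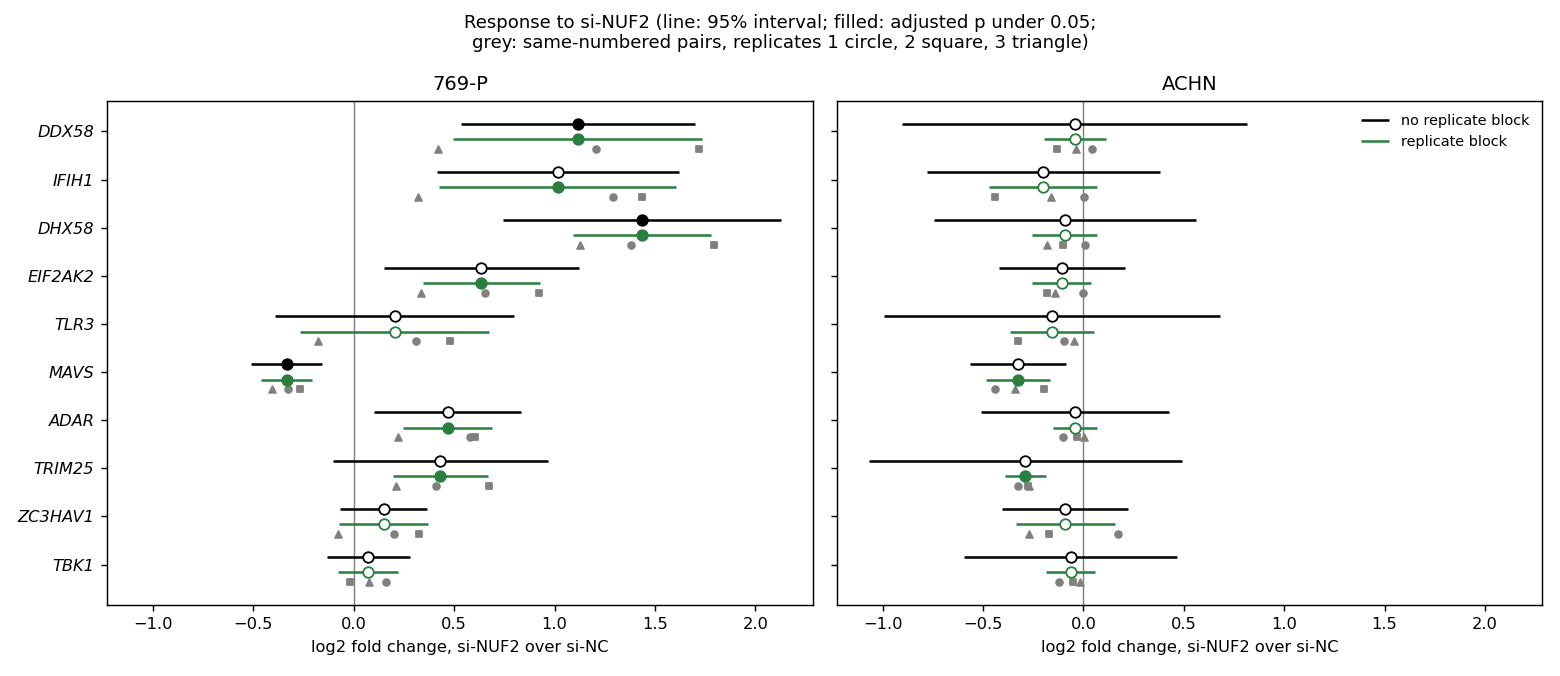
Log2 fold change of each member with si-NUF2 over si-NC in 769-P (left) and ACHN (right), with 95% intervals without (black) and with (green) the replicate block, filled where the adjusted p is under 0.05, and the same-numbered pairs in grey. In 769-P the estimates of all members but MAVS lie right of 0. The intervals of TLR3, ZC3HAV1 and TBK1 there include 0, as does that of TRIM25 without the block. MAVS lies left of 0 in both lines, and the intervals in ACHN narrow with the block.

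Whether the lines differed in their response was tested as the interaction of line and siRNA over all 12 libraries. Without the block limma called 0 of 10 members beside 0.0% of 16564 genes, with 4 members (DDX58, IFIH1, DHX58 and EIF2AK2) and 776 genes at an unadjusted p under 0.05. With the block it called 2 of 10 members beside 1.52% of genes, DHX58 and TRIM25, with 6 members and 3300 genes at an unadjusted p under 0.05. The response of DHX58 in ACHN minus that in 769-P was -1.52 on the log2 scale (95% interval -2.50 to -0.55 without the block and -1.93 to -1.12 with it), with an adjusted p of 0.864 without and 0.0323 with the block. For TRIM25 the difference was -0.72 (95% interval -1.66 to 0.23 without the block and -0.99 to -0.44 with it), with an adjusted p of 1.00 without and 0.0464 with the block, and the line-specific values have opposite signs. For DDX58, IFIH1, EIF2AK2 and ADAR the differences were -1.15, -1.21, -0.74 and -0.50, with limma adjusted p of 0.110, 0.101, 0.0694 and 0.0787 with the block. The responses of these genes are not shown to differ between the lines. For MAVS the difference was 0.01 (95% interval -0.23 to 0.26).

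Under si-NUF2 the lines were compared in the 6 libraries that the baseline comparison does not use. Of the members, 6 of 10 were called beside 61.8% of 15266 genes. TLR3 (log2 difference 1.52) and TBK1 (0.89) were higher in ACHN, and MAVS (-0.48), ZC3HAV1 (-0.61), EIF2AK2 (-1.03) and DDX58 (-1.08, limma adjusted p = 0.0342) were lower. TLR3, TBK1, MAVS and ZC3HAV1 were thus called in the same direction under both siRNAs. DDX58 lost its call without 769-P si-NUF2 replicate 1 or 2 or ACHN si-NUF2 replicate 1 or 2 (adjusted p 0.0661 to 0.105).

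**Figure D4:**
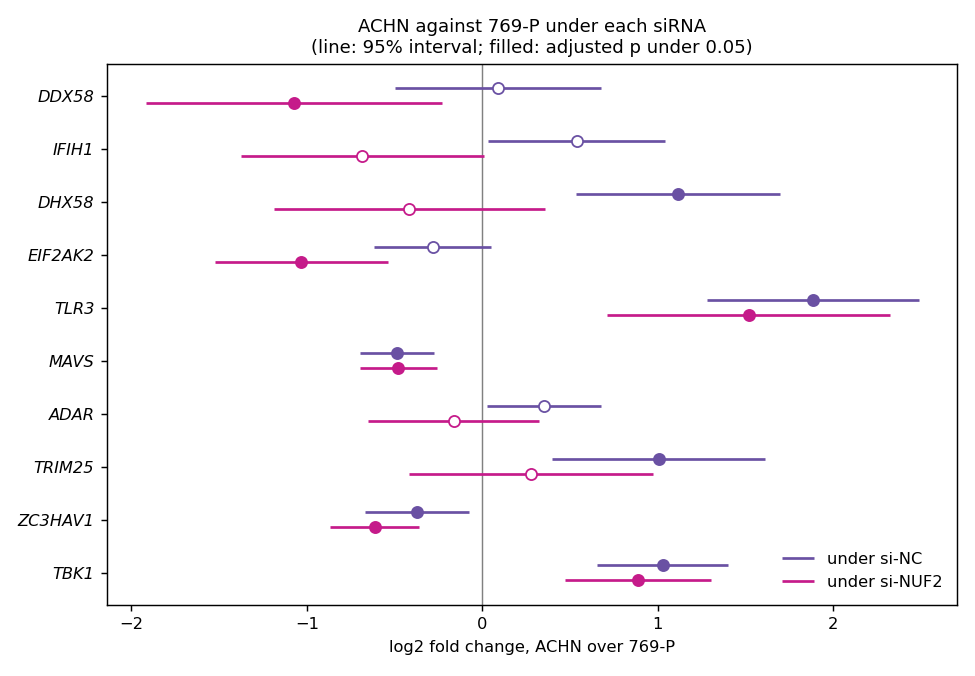
Log2 fold change of each member in ACHN over 769-P (horizontal axis) under si-NC and under si-NUF2, with 95% intervals, filled where the limma adjusted p is under 0.05. TLR3 and TBK1 lie right of 0 and MAVS and ZC3HAV1 left of 0 under both siRNAs, and the estimates of DDX58, IFIH1, DHX58 and ADAR change side.

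The other nucleic acid sensors were counted by the same measure of presence. Of 20 such genes, 11 were present in both lines, 1 in 769-P alone and 2 in ACHN alone. The 4.04% and 8.23% above are shares of the genes tested, and 14 of these 20 were tested. The counts are too small to compare with those shares. The gene present in 769-P alone was MB21D1, which encodes cGAS, the sensor of cytosolic DNA. It was at 6.59, 5.22 and 5.40 FPKM in 769-P under si-NC and at 0.00767, 0 and 0.0137 in ACHN (limma adjusted p = 2.0e-06). TMEM173, which encodes its adaptor STING, was low in both, at 0.326, 0.640 and 0.321 FPKM in 769-P against 0.00827, 0.0741 and 0.0443 FPKM in the ACHN libraries. The inflammasome genes were the other way round: NLRP1 was at 0.0451, 0.0925 and 0.0675 FPKM in 769-P and at 7.71, 4.90 and 8.92 in ACHN, and NLRP3 was listed at 0 in all 769-P libraries and at 4.89, 1.57 and 7.23 in ACHN under si-NC. Of the regulators of RIG-I, MDA5 and MAVS, ARRDC4 had the largest difference, a log2 fold change of -3.06 in ACHN over 769-P (limma adjusted p = 0.000622). STAU2, which binds double-stranded RNA, and the exosome subunit EXOSC5 had log2 differences of -1.70 and -1.67.

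The lists around the members were counted in the same way for si-NUF2 in 769-P, beside 9.98% of all genes called without the block and 27.5% with it, and several of the counts lie near these shares. Of 12 other nucleic acid sensors tested, 3 rose and 1 fell without the block, and with the block 3 rose and 2 fell. IFI16, an interferon-inducible DNA-binding protein, was at 9.71, 10.2 and 9.26 FPKM under si-NC and at 26.0, 29.6 and 17.8 under si-NUF2 (log2 fold change 1.30 ± 0.18 SE, limma adjusted p = 0.0104). DDX60 and DDX60L, helicases related to each other, rose by log2 fold changes of 1.18 and 0.93, and DHX15 fell by 0.27 on the log2 scale. Of the 21 factors downstream of the sensors 1 rose and 2 fell without the block: TRAF3, which links MAVS to TBK1, rose by 0.70, and TOMM70 (-0.58) and TRADD (-0.53) fell. Of 29 regulators of RIG-I, MDA5 and MAVS only the mitofusin MFN1 was called (0.73), of 15 genes of double-stranded RNA binding and the eIF2alpha arm the kinase EIF2AK3 (-0.53) and the nuclease DICER1 (-0.49) fell, and of 14 cofactors and relatives of ZAP PARP9 rose (1.28). With the block the counts were 3 up and 3 down, 6 up and 5 down, 2 up and 4 down, and 3 up and 2 down for these 4 lists. Their median log2 fold changes were -0.02, 0.01, -0.05 and 0.14, and that of the other sensors was -0.02, against 0.45 for the members and -0.01 over all genes.

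In ACHN without the block limma called 0 genes of these lists, and at an unadjusted p under 0.05 were 2 of 21 downstream factors, 1 of 29 regulators, 0 of 13 other sensors, 1 of 15 genes of the eIF2alpha arm and 2 of 14 relatives of ZAP. Over all genes 1238 of 15116 were at that level. With the block, beside 12.2% of all genes, 2 of 21 downstream factors (1 higher and 1 lower), 3 of 29 regulators (all higher), 2 of 13 other sensors, 0 of 15 genes of the eIF2alpha arm and 3 of 14 relatives of ZAP (1 higher and 2 lower) were called. TRAF3 (0.83) and TRADD (-0.43), named after their values were seen, had the signs they had in 769-P. Of the other sensors NLRP3 (0.58) was higher and NLRP1 (-0.25) lower. In the interaction limma called 0 list genes without the block, with 2, 1, 4, 0 and 2 genes of these lists at an unadjusted p under 0.05 beside 776 of 16564 genes. With the block it called 1 of 21 downstream factors, 2 of 29 regulators, 2 of 14 other sensors, 0 of 15 genes of the eIF2alpha arm and 1 of 14 relatives of ZAP, beside 1.52% of all genes. Of the called regulators 1 was higher and 1 lower in ACHN response minus 769-P response, and the relative of ZAP was lower. They are not named here. The downstream factor was IRF7, the interferon-induced transcription factor, with a log2 difference of -1.78. The other sensors were IFI16 (-1.25) and DDX60 (-1.24), and these named genes were picked after their values were seen.

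All 21 interferon genes of the list were below 0.5 FPKM in all 12 libraries, and none was tested. IFNL1 in 769-P was at 0.0396, 0.0364 and 0 FPKM under si-NC and at 0.372, 0.243 and 0.152 under si-NUF2, which are 1, 1 and 0 against 10, 6 and 4 recovered reads. The groups did not overlap, and the counts are too few to read a size from. IFNB1 was at 0, 0.0726 and 0 under si-NC and at 0, 0.162 and 0.0378 under si-NUF2. IFNL2 ranged from 0 to 0.424 and IFNL3 from 0 to 0.316 over the 769-P libraries, and IFNE from 0.0634 to 0.230. In ACHN these 5 genes were listed at 0 in all libraries, and IFNK was at 0.0279 in 1 ACHN library.

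The genes whose profiles lay nearest to that of DDX58 were named by the root mean square difference of mean-centred log2(FPKM + 0.1) over the 12 libraries, among 16564 genes. They were DDX60 (0.196), DDX60L (0.215), IFIT3 (0.219), TRIM21 (0.235) and DTX3L (0.261). Of the other members EIF2AK2 ranked 8 and IFIH1 24, ADAR ranked 95, ZC3HAV1 123 and DHX58 188. TRIM25 (5664), MAVS (5746), TBK1 (10859) and TLR3 (13170) lay far down this order. The distance also counts the size of changes and the difference between the lines, so a gene with small changes can rank ahead of one that rose with DDX58. The points share libraries and depth, and this likeness is a description with no test.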

How the data were processed

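The genes and gene lists were chosen with earlier results of these data known. The deposited values are FPKM per gene and library, which the authors made from total RNA sequenced on an Illumina instrument and filtered with fastp; the submitters' processing notes name HISAT2 2.0.5, featureCounts 1.5.0-p3 and hg38, and the annotation release and strand setting are not given in the sources used here. Reads were recovered from FPKM and exon lengths of GENCODE 29 for 34593 of 36305 genes above 0 (95.3%, within 0.02 reads of a whole number), for depth and for 1 alternative test, limma-voom, which called 4 of the 10 members and 1868 genes with si-NUF2 in 769-P. The GENCODE 29 lengths did not give whole reads for IFIH1, ADAR and TRIM25, whose reads in limma-voom are estimates.

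FPKM were scaled by a trimmed mean of log ratios (30% and 5% trimmed). Genes at 0.5 or more in 3 libraries were fitted as log2(FPKM + 0.1) with limma 3.58.1 (lmFit, eBayes with trend, R 4.3.3) and adjusted by Benjamini-Hochberg over all genes. The threshold was an adjusted p under 0.05. Each comparison used its own libraries, with no replicate block. Same-numbered libraries, by the number in their titles, deviated together within a line (correlations of 0.190 to 0.359 for the 769-P pairs, 0.460 to 0.735 for the ACHN pairs), so the blocked value is given where it changes a call. The fits were also run on simulated data. For the blocked fit most of each simulated deviation was shared by the block, more than the correlations above. Those runs therefore do not match the blocked fits of these data. Named were all members, list genes called within a line (at most 12 per comparison), the 6 with the largest difference between lines, all interferon genes and the 5 nearest to DDX58. Sequences are from RefSeq. Libraries of each group differed by more than sampling noise. Alternatives were scaling, filter, pseudocount, block, threshold, 1 fit of all libraries, voom, and each library left out. Precision is limited by 3 libraries per group. Python 3.11.15, NumPy 2.4.6, pandas 2.3.3 and matplotlib 3.10.9 made the tables and figures. Some marker genes are not reported here.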

Additional observations from a re-analysis of the deposited data

Results flagged for a closer look

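For 2 members the response to si-NUF2 differed between the lines by the interaction test of limma with the replicate block. The difference, ACHN minus 769-P, was -1.52 on the log2 scale for DHX58, which was higher under si-NUF2 in 3 of 3 pairs in 769-P and in 1 of 3 in ACHN. It was -0.72 for TRIM25, which was higher in 3 of 3 pairs in 769-P and in 0 of 3 in ACHN. The adjusted p were 0.0323 and 0.0464 with the block and 0.864 and 1.00 without it, and over the 20 alternatives of each they reached 1.00.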

How the results depend on the processing

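Of 849 values of the members under an alternative, 767 kept their direction and their side of the threshold, 40 lost and 21 gained a call and 21 changed sign. For si-NUF2 in 769-P (3 members and 1412 genes called) the counts were 0 and 635 with no filter, 7 and 3898 with the replicate block, 0 and 160 at an adjusted p under 0.01, and 700 genes with all 12 libraries in 1 fit. Leaving out 1 library gave 5 members with 357 genes without si-NUF2 replicate 3, 1 with 1144 without si-NC replicate 1, and 0 with 685 or 566 without si-NUF2 replicate 1 or 2 and with 365 or 450 without si-NC replicate 2 or 3, so the counts of members and genes did not move together. For si-NUF2 in ACHN (0 and 0) the block gave 2 members and 1843 genes and the fit of all 12 libraries 171 genes. For the interaction (0 and 0) the block gave 2 members and 251 genes, no filter 15 genes, a pseudocount of 0.01 gave 2 genes, and leaving out 1 library gave 0 to 1 gene. Between the lines same-numbered libraries did not deviate together (correlations -0.0569 to 0.0429), and the block there removed the call of DDX58 under si-NUF2 (adjusted p = 0.0792) and changed no other call of a member. The causes were not tested.

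The sign changes were in values that were not called. Leaving out 1 library, the log2 fold changes with si-NUF2 in ACHN spanned -0.31 to 0.24 for DDX58, -0.28 to 0.13 for DHX58, -0.47 to 0.10 for TLR3, -0.21 to 0.10 for ADAR, -0.19 to 0.0138 for ZC3HAV1 and -0.25 to 0.10 for TBK1. They spanned -0.0297 to 0.36 for TLR3 in 769-P and -0.17 to 0.33 for DDX58 between the lines under si-NC. The interaction spanned -0.0647 to 0.0542 for MAVS, with -0.0016 under limma-voom, and -0.32 to 0.0167 for TBK1. The interferon genes, with at most 10 recovered reads in any library, are limited by depth.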
